A study of Mus musculus with 12 samples.

Results

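C1qtnf3, Ntrk2, Scrg1, Ppp1r3c and Mcoln3 are 5 genes whose transcripts had far higher signals in the proliferative than in the hypertrophic zone of the mouse growth plate. They were chosen by symbol, out of 19352 genes with a named probe that passed the filter on dim signals, for their large falls toward the hypertrophic zone. The array carried 10 probes for them, 2 each for C1qtnf3, Ppp1r3c and Mcoln3, 3 for Ntrk2 and 1 for Scrg1, and all 10 passed that filter. The fall from the proliferative to the hypertrophic zone is what selected the genes, so its size is given here as a description without a test. Swiss White mice aged 14 days gave the cartilage, from the growth plate of the femur, which was separated under the microscope on cryosections into proliferative, prehypertrophic and hypertrophic zones, with 4 samples of each. The RNA was amplified and hybridised as 12 samples on 6 two-colour arrays, each pairing 2 zones, and every pair of zones was hybridised in both dye orientations. All groups shared strain, age and tissue, no treatment or genetic change is given, and separate animals are not stated for the 4 samples of a zone. The p-values and standard errors measure how the log2 ratios between the 2 zones of an array scattered over the 6 arrays, which may therefore be technical. They do not measure the spread of levels between samples, which was larger for some genes.

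In the growth plate, chondrocytes divide in columns, stop dividing as they become prehypertrophic, and then enlarge and mineralise their matrix. The 5 genes have unlike roles. C1qtnf3 encodes a secreted protein with a collagen-like stalk and a globular C1q domain, also known as CTRP3 and, from mouse cartilage, as cartducin, which promotes growth of cartilage precursor cells. Ntrk2 encodes TrkB, the receptor tyrosine kinase for the neurotrophins BDNF and NT-4, and is made in full-length and in truncated forms that lack the kinase domain. Scrg1 encodes a small cysteine-rich secreted protein first described in scrapie-infected mouse brain. Ppp1r3c, also called protein targeting to glycogen, brings protein phosphatase 1 to glycogen particles, and Mcoln3 (TRPML3) is a cation channel of endosomes and lysosomes.

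Since the genes fall together, 250 bases before 1 transcript start each are shown, from a RefSeq promoter table (GRCm38.p6), for the 4 genes that matched it, to let them be compared. Only for Ppp1r3c is that start the first base of the gene as RefSeq annotates it. It lies 97 bases inside the gene for Ntrk2, 213 for C1qtnf3 and 28514 for Mcoln3, so other starts exist for these genes and the bases before them are not shown. Capitals mark the letters of 4 short motifs found on either strand: the TATA box, and SOX-type, HIF-type and RUNX-type motifs, which are spelled out after the sequences.
C1qtnf3, chr15:10952082-10952331, plus strand: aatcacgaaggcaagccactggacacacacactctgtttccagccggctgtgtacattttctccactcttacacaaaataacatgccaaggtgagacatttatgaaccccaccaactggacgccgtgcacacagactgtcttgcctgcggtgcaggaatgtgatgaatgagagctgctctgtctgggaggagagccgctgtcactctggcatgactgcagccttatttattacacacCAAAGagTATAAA
Ntrk2, chr13:58806319-58806568, plus strand: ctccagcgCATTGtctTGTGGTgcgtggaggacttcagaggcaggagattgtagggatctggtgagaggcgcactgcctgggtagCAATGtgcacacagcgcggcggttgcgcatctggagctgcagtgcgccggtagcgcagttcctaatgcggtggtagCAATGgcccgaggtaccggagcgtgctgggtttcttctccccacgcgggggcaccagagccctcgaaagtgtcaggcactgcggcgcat
Ppp1r3c, chr19:36736605-36736854, minus strand: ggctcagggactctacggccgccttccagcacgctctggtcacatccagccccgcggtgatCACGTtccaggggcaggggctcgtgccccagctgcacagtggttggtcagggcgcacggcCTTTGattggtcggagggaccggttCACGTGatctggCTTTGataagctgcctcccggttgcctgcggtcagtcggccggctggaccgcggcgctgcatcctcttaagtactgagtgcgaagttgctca
Mcoln3, chr3:146121541-146121790, plus strand: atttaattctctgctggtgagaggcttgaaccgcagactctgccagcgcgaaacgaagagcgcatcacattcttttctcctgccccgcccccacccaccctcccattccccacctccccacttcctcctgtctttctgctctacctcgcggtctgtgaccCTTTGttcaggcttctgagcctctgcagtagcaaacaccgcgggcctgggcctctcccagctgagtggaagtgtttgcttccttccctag
The C1qtnf3 sequence was the only one of the 4 with TATAAA, which forms its last 6 bases and lies inside the annotated gene, and it was 49.2% G and C against 58% to 64.4% in the other 3 and a median of 52.4% over 32851 promoters. TATAAA occurred in 12.4% of those promoters. Ppp1r3c was the only one of the 4 with the HIF-type letters ACGTG, at 3 places, of which 2 overlap on opposite strands, and 16.6% of all promoters held it. The RUNX-type letters TGTGGT occurred once, in Ntrk2, and in 14.0% of all promoters. All 4 held a SOX-type match, spelled CAAAG or CAATG, and so did 65.0% of all promoters. A match is a description of the letters and not a binding site.

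The zones carried the markers of their labels only in part. The share of spots well above background was 92.6% to 96.2%. Across probes, which are not independent replicates, samples from the same zone had correlations of 0.961 to 0.975 and samples from different zones 0.898 to 0.965. All 3 prehypertrophic markers (Ihh, Pth1r, Mef2c) were higher in the prehypertrophic than in the proliferative zone, and all 5 measured hypertrophic markers were higher in the hypertrophic than in the proliferative zone. The prehypertrophic markers set that zone apart from the hypertrophic one only in part. Between those 2 zones 1 of the 3 was lower in the hypertrophic zone and 2 did not pass. All 3 were called above the mean of the outer zones. Their summed signal was 118 to 180 in prehypertrophic and 120 to 143 in hypertrophic samples, and all 3 were higher in both than in the proliferative zone. Of 16 general chondrocyte markers, 11 were lower and 1 was higher in the hypertrophic than in the proliferative zone. The 6 measured markers of dividing cells went against the labels in part: their summed signal was 44.7 to 58.6 in proliferative, 12.4 to 17.5 in prehypertrophic and 56.5 to 69.8 in hypertrophic samples. Marrow, blood and vessel markers moved with the hypertrophic samples. Of 12 leukocyte and marrow genes 11 were higher there than in the proliferative zone, as were 4 of 5 erythroid and 6 of 10 endothelial genes. Their summed signal, relative to the 75th percentile, ran in the leukocyte list from 6.5 to 18.3 in proliferative, 7.52 to 20.1 in prehypertrophic and 200.5 to 300.4 in hypertrophic samples. In the erythroid list the ranges were 2.18 to 6.37, 2.15 to 4.97 and 52.1 to 67.7, and in the endothelial list 2.21 to 3.12, 2.85 to 3.68 and 8.99 to 12.2. The part of these other cells in the falls was not tested, and fewer cells that make a transcript cannot be told apart here from less of it per cell. The leukocyte and erythroid ranges of the prehypertrophic samples overlapped those of the proliferative samples, although 2 of 12 leukocyte genes, Ptprc (0.61) and S100a9 (0.39), were already called higher over that first step.

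C1qtnf3 had the largest fall of all 19349 genes ranked, each by its brightest probe. Levels below are log2 signals relative to the 75th percentile of the sample. The brightest C1qtnf3 probe (A_52_P588633) stood at 6.32, 6.35, 5.90 and 6.27 in proliferative replicates 1 to 4, at 4.32, 4.50, 4.02 and 4.22 in the prehypertrophic samples and at -0.19, 0.31, -0.53 and -0.12 in the hypertrophic samples. The 3 zones did not overlap. Its hypertrophic level was lower by a log2 change of -6.33 ± 0.14, or 80.5-fold (standard error from limma over 6 arrays, with 4 samples in each zone). The change was made of -1.85 ± 0.14 over the first step and -4.48 ± 0.14 over the second. Spots of this probe were saturated in proliferative replicates 1 and 3, so the whole change, its fold and the first step may be larger than measured. The second probe (A_51_P425071), annotated to the same transcript, was saturated in no sample. It stood at 1.06, 0.87, 0.81 and 0.72 in the proliferative, -1.17, -0.74, -0.92 and -0.79 in the prehypertrophic and -2.74, -2.54, -3.47 and -2.92 in the hypertrophic samples. These zones did not overlap either, and its change was -3.61 ± 0.08, or 12.2-fold, with -1.57 ± 0.08 over the first step and -2.05 ± 0.08 over the second.

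Ntrk2, at rank 3 by its brightest probe, lost most of its signal before hypertrophy. That probe (A_51_P516006) stood at 3.99, 3.62, 3.84 and 3.60 in proliferative, -0.60, -0.42, -0.31 and 0.05 in prehypertrophic and -1.89, -1.85, -2.09 and -2.17 in hypertrophic replicates 1 to 4. The fall of -3.95 ± 0.14 over the first step made up 71.4% of the whole, which was -5.53 ± 0.14 or 46.1-fold. Probe A_51_P516012 gave nearly the same picture, with levels of 2.80 to 3.13 in the proliferative, -1.60 to -0.93 in the prehypertrophic and -2.44 to -1.94 in the hypertrophic zone. Its first step was -3.96 ± 0.17 and its whole change -4.98 ± 0.17. The third Ntrk2 probe (A_51_P393454) read differently. It stood at -2.74, -3.07, -2.80 and -3.05 in the proliferative, -2.63, -3.95, -3.41 and -3.01 in the prehypertrophic and -3.48, -3.94, -2.98 and -3.92 in the hypertrophic samples, with overlap between all zones and a change of -0.60 ± 0.14. The annotation lists a different transcript for each of the 3 probes (AK018789, NM_008745 and NM_001025074, in the order given here). Which forms of the receptor each probe reads was not tested.

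Ppp1r3c, at rank 5, kept most of its signal in the prehypertrophic zone and lost it afterwards. Its brightest probe (A_52_P30451) stood at 0.47, 0.25, 0.42 and 0.09 in the proliferative, -0.63, -0.31, -0.25 and -0.55 in the prehypertrophic and -4.31, -4.28, -4.57 and -4.03 in the hypertrophic samples. The zones did not overlap, and the spread within each was small (SD 0.17, 0.19 and 0.22). The first step was -0.74 ± 0.05 and the second -3.78 ± 0.05, so that 83.7% of the whole change of -4.51 ± 0.05 (22.8-fold) fell in the second step. With 50 added to each signal the whole change was -3.96, since the hypertrophic signals of this probe were only 75.2 to 112.3. The other Ppp1r3c probe (A_51_P521010), annotated to the same transcript, was well above background in 6 of 12 samples, 2 in each zone. Its levels ran from -6.95 to -3.93 in the proliferative, -7.09 to -4.36 in the prehypertrophic and -6.89 to -3.29 in the hypertrophic zone, and its change was 0.28 ± 0.09. In this probe the 6 dim samples were both samples of arrays 2, 3 and 6.

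Mcoln3, at rank 7, fell by similar amounts over both steps in its brightest probe. The brightest Mcoln3 probe (A_52_P333097) stood at 2.51, 2.19, 2.39 and 2.06 in the proliferative, -0.06, 0.20, 0.21 and -0.08 in the prehypertrophic and -1.97, -2.18, -2.76 and -2.32 in the hypertrophic samples, again without overlap. Its steps were -2.07 ± 0.09 and -2.39 ± 0.09, and its whole change was -4.46 ± 0.09, or 22.0-fold. Probe A_51_P272363 changed by -0.34 ± 0.12, with levels of -3.53 to -2.58 in the proliferative, -3.89 to -2.12 in the prehypertrophic and -3.09 to -2.56 in the hypertrophic zone, so that all zones overlapped. Its ratio on array 3 was left out for an outlier flag, which left 5 ratios and 3 samples each of the prehypertrophic and hypertrophic zones. The annotation lists a RefSeq transcript for A_51_P272363 and a different transcript for A_52_P333097. Which forms of Mcoln3 each probe reads was not tested.

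Scrg1, with 1 probe (A_51_P258690), was at rank 50 by its measured fall. It stood at 6.27, 6.77, 5.90 and 6.74 in the proliferative, 6.50, 6.72, 5.72 and 5.76 in the prehypertrophic and 2.76, 3.87, 2.82 and 3.46 in the hypertrophic samples. The proliferative and prehypertrophic samples overlapped, and the hypertrophic samples lay below both. Spots were saturated in all 4 proliferative samples and in prehypertrophic replicate 4, so the proliferative level is a lower bound. Scrg1 was 9.16-fold higher in the proliferative than in the hypertrophic zone, from means of normalized log2 values with saturated spots at their value. For these means the average intensities of the arrays were also quantile-normalized, and the main fit gave 10.6-fold. Both are estimates that saturation may hold too low. No fold is given between the proliferative and prehypertrophic zones, which both held saturated spots. Between them the fitted change turned sign when 1 array was left out (-0.51 to 0.17). The fitted changes were -3.40 ± 0.30 for the whole, -0.32 ± 0.30 for the first step and -3.08 ± 0.30 for the second.

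**Figure D1:**
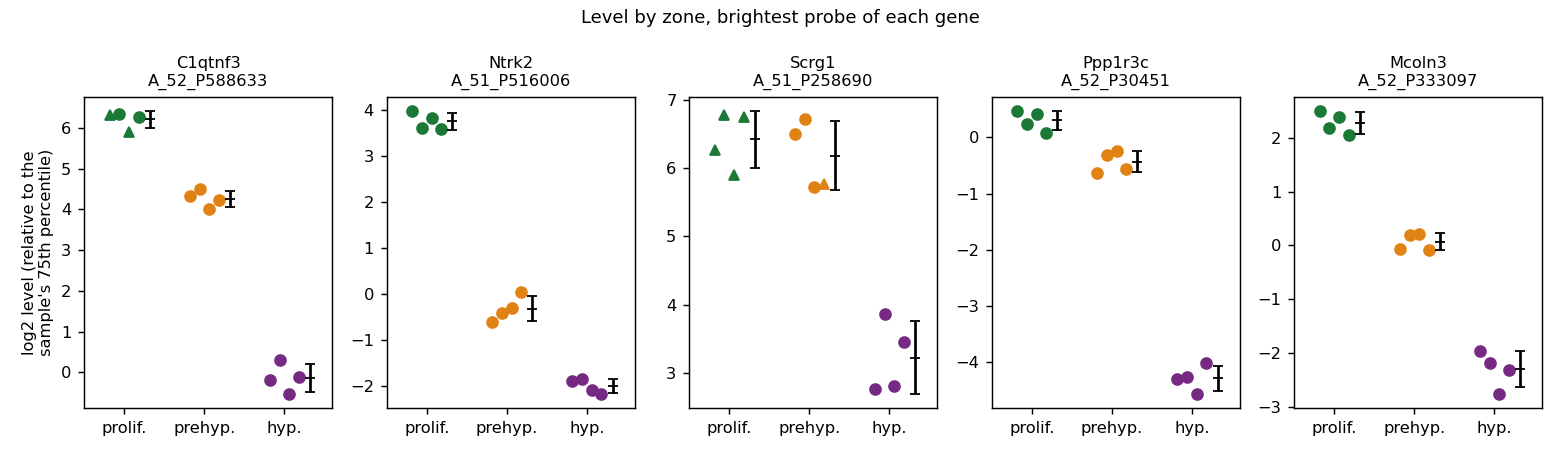
Level of the brightest probe of each gene in the 12 samples (vertical axis, log2 signal relative to the 75th percentile of the sample) by zone (horizontal axis, prolif. proliferative, prehyp. prehypertrophic, hyp. hypertrophic). Points are samples, triangles saturated spots, and bars the mean ± SD of 4 samples; only Scrg1 overlaps between the first 2 zones, and Ntrk2 is the gene whose larger drop comes first.

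**Figure D2:**
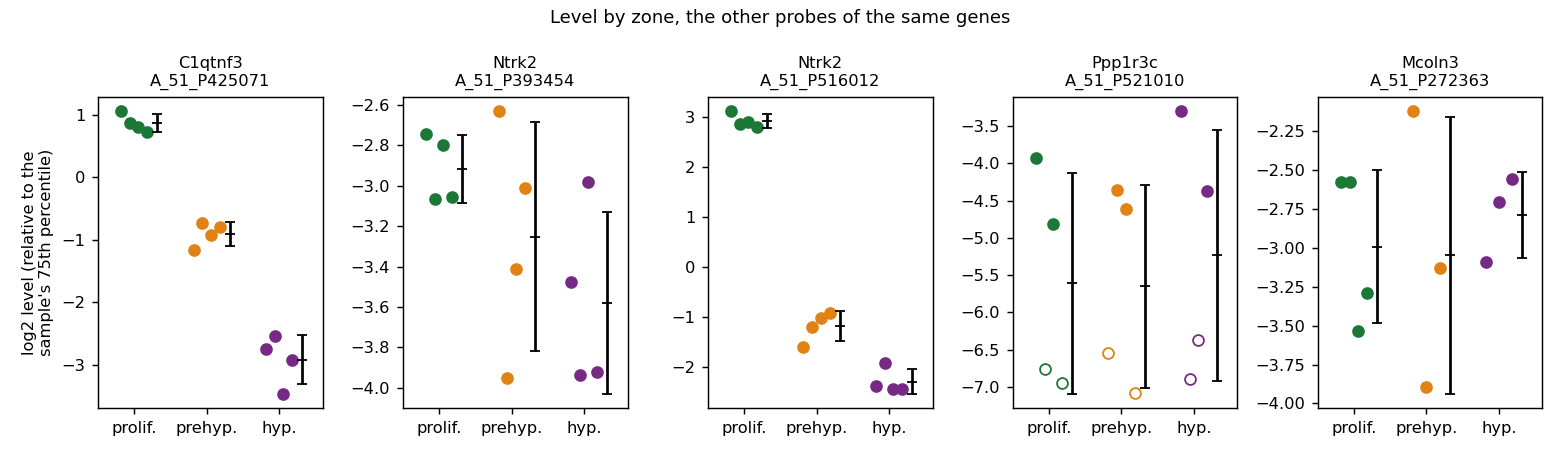
The same plot for the other 5 probes of C1qtnf3, Ntrk2, Ppp1r3c and Mcoln3, with open points for samples not well above background and each panel on its own vertical scale. C1qtnf3 A_51_P425071 and Ntrk2 A_51_P516012 separate the zones, and the remaining 3 do not.

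Between the proliferative and hypertrophic samples 7 of the 10 probes did not overlap, all of them lower in the hypertrophic zone, as were 17.9% of all 39906 probes tested. At an adjusted p of 0.05, 27.8% of all probes were called lower. In either direction 55.4% of all probes were called in this contrast, 42.3% between prehypertrophic and proliferative and 53.8% between hypertrophic and prehypertrophic samples. Because this contrast chose the genes, nothing is read from that count. On the 2 arrays that held both zones side by side, the hypertrophic level minus the proliferative level was taken for each brightest probe. These differences in log2 level were -6.51 and -6.03 for C1qtnf3, -5.89 and -5.47 for Ntrk2 and -4.78 and -4.52 for Ppp1r3c. For Mcoln3 they were -4.48 and -4.37, and for Scrg1 -3.50 and -2.90. The first of each pair had the proliferative sample in Cy5 and the second in Cy3, and both dye orientations gave a fall.

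Whether a fall is spread evenly over the axis can be tested apart from its size. The difference of the prehypertrophic zone from the mean of the outer zones is uncorrelated, in this balanced design, with the difference between the outer zones that chose the genes. Saturated proliferative spots enter both differences for Scrg1 and the brightest C1qtnf3 probe, so for these the separation is not complete. A positive value places the prehypertrophic zone nearer the proliferative zone and a negative value nearer the hypertrophic zone. It was called for 6 of the 10 probes, 4 higher and 2 lower, and for 4 of 5 genes by their brightest probe, where 46.5% of all probes and 53.8% of genes were called, so the number of calls is near the background. Higher values were called for 23.1% of probes and 26.6% of genes, and lower values for 23.4% and 27.2%. The genes differed in direction. Ppp1r3c lay above the mean of the outer zones by 1.52 ± 0.05 (limma, Benjamini-Hochberg adjusted p over all probes = 1.55e-04) and the brightest C1qtnf3 probe by 1.31 ± 0.12 (limma adjusted p = 0.00184). Ntrk2 lay below it, by -1.19 ± 0.12 in the brightest probe (limma adjusted p = 0.00232) and by -1.47 ± 0.15 in A_51_P516012 (limma adjusted p = 0.00225). Mcoln3 did not pass (0.16 ± 0.08, 95% interval -0.06 to 0.37, limma adjusted p = 0.187), and that interval leaves room for a small departure from an even fall.

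For Scrg1 and C1qtnf3 saturation bears on this value. Scrg1 lay above the mean of the outer zones by 1.38 ± 0.26 (limma adjusted p = 0.0144). A higher true proliferative level would lower this value, and a higher true level in the saturated prehypertrophic replicate 4 would raise it. Without array 6, which held replicate 4 of both zones, it was 1.75. The Scrg1 call ended without array 3 (limma adjusted p = 0.0575), array 4 (0.0737) or array 5 (0.0748). The unsaturated C1qtnf3 probe A_51_P425071 gave 0.24 ± 0.07 (limma adjusted p = 0.0497), smaller than the 1.31 of the probe saturated in 2 proliferative samples. That call ended without array 1, 3, 4, 5 or 6 (limma adjusted p 0.0747 to 0.163), without the dye term (0.100), with 50 added to each signal (0.133, adjusted p = 0.125), without the filter (0.0524), with robust moderation (0.0531) and in the separate-channel fit with the replicate number as a block (0.09, adjusted p = 0.468). The probes of Ntrk2 (A_51_P393454), Mcoln3 (A_51_P272363) and Ppp1r3c (A_51_P521010) that showed little change gave -0.13, 0.13 and -0.10 and did not pass (limma adjusted p = 0.424, 0.418 and 0.399).

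**Figure D3:**
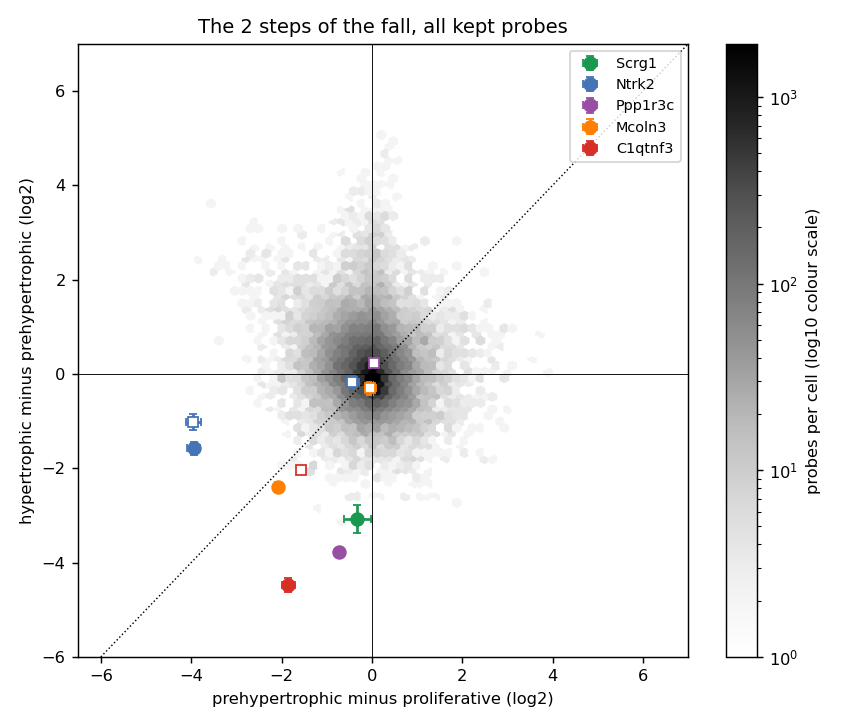
Change over the first step (horizontal axis, prehypertrophic minus proliferative, log2) against the second (vertical axis, hypertrophic minus prehypertrophic, log2) for all kept probes (grey, darker for more probes) and the 10 probes of the 5 genes with ± SE, filled for the brightest probe of a gene and open squares for the others. On the dotted line both steps are equal; Mcoln3 is next to it, Ntrk2 to its upper left and Ppp1r3c, Scrg1 and the brightest C1qtnf3 probe below it.

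Probes of 1 gene that disagree were not peculiar to these genes. Over 8438 genes with several kept probes, the brightest probe fell by at least 3 on the log2 scale between the proliferative and hypertrophic zones in 37, and in 23 of these (62.2%) another probe of the gene changed by less than 1. Ntrk2, Ppp1r3c and Mcoln3 are among the 23, and C1qtnf3 is not. Of the 52 other probes of the 37 genes, 9 also fell by at least 3 and 8 were higher in the hypertrophic zone. Averaging the ratios of a gene's probes on each array moved the whole change to -3.70 for Ntrk2, -2.11 for Ppp1r3c, -2.58 for Mcoln3 (-0.88 over the first step and -1.70 over the second) and -4.97 for C1qtnf3. The Mcoln3 average on array 3 held only the brightest probe, since the ratio of A_51_P272363 was left out there. Its steps are therefore not plain means of both probes, which singly gave -2.07 and -0.04 over the first step and -2.39 and -0.30 over the second. What sets such probes apart was not tested.

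**Figure D4:**
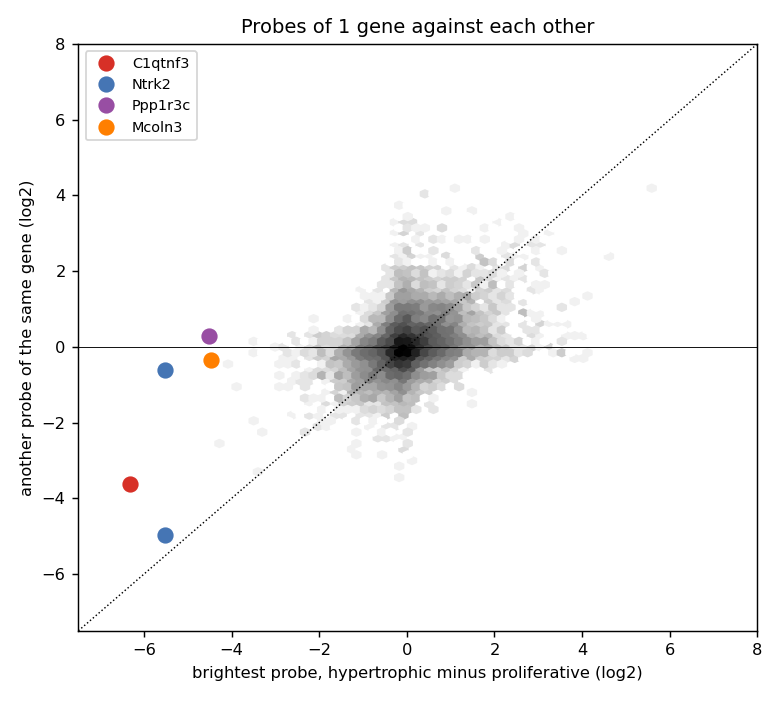
Change between the hypertrophic and proliferative zones (log2) of the brightest probe of a gene (horizontal axis) and of another probe of the same gene (vertical axis), for genes with several kept probes (grey, darker for more) and for the 4 of the 5 genes that have several. Points on the dotted line agree; the second Ntrk2 probe lies next to it, and the third Ntrk2 probe and those of Ppp1r3c and Mcoln3 lie near 0.

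The closest profile to that of the brightest Mcoln3 probe, among 17410 other genes with a level in every sample, was that of Mcoln2. Mcoln2 encodes the paralogous channel TRPML2. Each gene was compared by its brightest probe only, so Mcoln3 probe A_51_P272363, which showed little change, was not compared. Likeness was measured as the root mean square difference of log2 levels over the 12 samples after centring each gene, which was 0.13 for Mcoln2 (Pearson r = 0.998, n = 12 samples that share arrays and zones). Mcoln2 stood at 2.33, 2.05, 2.06 and 1.88 in the proliferative, -0.35, 0.01, -0.04 and -0.33 in the prehypertrophic and -1.82, -2.51, -2.89 and -2.70 in the hypertrophic samples, which did not overlap between zones. In RefSeq (GRCm38.p6) the 2 genes are neighbours on chromosome 3 with 0 annotated genes between them. Mcoln1, the third mucolipin, changed by -0.07 ± 0.03 (limma adjusted p = 0.123). Next to the brightest Mcoln3 probe came the small proteoglycan Fmod (0.17, r = 0.996) and the secreted lectin Clec11a (0.20, r = 0.995).

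The other genes, each by its brightest probe, had looser neighbours. Ntrk2 was nearest to the matrix protein Tgfbi (0.51, r = 0.995), the growth factor Gdf10 (0.54, r = 0.977) and the cytoskeletal linker Tln2 (0.58, r = 0.992). Tgfbi and Tln2 also dropped mostly over the first step, by -2.93 and -3.28 of whole changes of -4.45 and -4.16. Ppp1r3c was nearest to the membrane protein Tmem45a (0.35, r = 0.996), the Wnt pathway agonist Rspo3 (0.37, r = 0.984) and the matrilin Matn2 (0.44, r = 0.987). Scrg1 was nearest to the pyrophosphatase Ppa1 (0.36, r = 0.972), Slc35e3 (0.37, r = 0.982) and the secreted protein Ecrg4 (0.41, r = 0.964). The nearest genes to C1qtnf3 lay farther off, where Gdf10 (0.72, r = 0.963), Fmod (0.84, r = 0.982) and Rspo3 (0.86, r = 0.984) came first.

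The families and pathways around the 5 genes were examined by lists, each gene by its brightest probe, without the 5 genes themselves. For reference, 30.4% of 19322 genes were called higher and 31.7% lower in the hypertrophic than in the proliferative zone, 24.3% and 24.5% in the prehypertrophic than in the proliferative zone, and 30.8% and 30.7% in the hypertrophic than in the prehypertrophic zone. The median changes over all genes were -0.03, 0.02 and -0.03.

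Relatives of C1qtnf3 with a C1q domain moved in both directions. Of 26 measured, 8 were higher, 8 lower and 10 did not pass between the hypertrophic and proliferative zones (median 0.03), and 4 were higher and 7 lower over the first step (3 lower without the dye term). Among the C1qtnf genes C1qtnf6 fell by 0.88 ± 0.03 (limma adjusted p = 7.09e-05), C1qtnf2 changed by -0.42 ± 0.03 (4.85e-04) and C1qtnf4 by -0.22 ± 0.03 (0.00554), each lower. C1qtnf12 was higher by 1.17 ± 0.03 (3.32e-05), and C1qtnf1 (0.16), C1qtnf5 (-0.11), C1qtnf7 (0.66) and C1qtnf9 (-0.08) did not pass. The largest rises on the list were those of Col10a1, the collagen of hypertrophic cartilage (4.74 ± 0.13), the endothelial matrix protein Mmrn2 (2.69 ± 0.14) and the cerebellin Cbln2 (1.77 ± 0.03), whose 2 other probes ranged from -0.23 to 1.74. The elastic fibre protein Emilin1 (-0.82 ± 0.08) and C1ql1 (-0.68 ± 0.09) fell.

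Neither measured ligand of Ntrk2 was called lower in the hypertrophic zone. Bdnf, measured by 2 probes, changed by 0.20 ± 0.10 (limma adjusted p = 0.155), and Ntf5, the gene of NT-4, was higher by 1.18 ± 0.07 in the hypertrophic zone (limma adjusted p = 0.00121). The Ntf5 value rests on 5 ratios, without array 2, which held proliferative replicate 2 and hypertrophic replicate 2. The related receptor Ntrk3 changed by -0.15 ± 0.04 (limma adjusted p = 0.0346) and the low-affinity receptor Ngfr by -0.17 ± 0.07 (limma adjusted p = 0.106). The other Ntrk3 probe gave -0.02. Levels of the brightest Ntrk3 probe overlapped, from -1.26 to -0.25 in proliferative and from -1.45 to -0.71 in hypertrophic samples. Of 24 measured ligands, receptors and adaptors 7 were higher, 6 lower and 11 did not pass (median -0.05). Over the first step, where Ntrk2 lost most, 8 were higher and 4 lower (5 higher without the dye term), and over the second 7 were higher and 9 lower (4 lower without the dye term). Among adaptors Shc1 (1.57 ± 0.07) and Kidins220 (0.96 ± 0.03) were higher, though another Kidins220 probe gave -0.34. The sorting receptor Sort1 fell by 1.99 ± 0.03 in its brightest probe, whereas its other probes ranged from -0.11 to -0.06. The exchange factor Sos1 changed by -1.30 ± 0.12, against 0.72 in its other probe, and Ndn by -0.29 ± 0.04.

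Glycogen genes were split. Of 30 measured, 11 were higher, 11 lower and 8 did not pass (median 0.02) in the hypertrophic against the proliferative zone. Of the other glycogen-targeting subunits, Ppp1r3g fell by 1.81 ± 0.08 (limma adjusted p = 1.31e-04), Ppp1r3b changed by -0.69 ± 0.07 (0.00142) and Ppp1r3d by -0.37 ± 0.07 (0.0233), each lower, and Ppp1r3a by -0.07 ± 0.18 (0.757). Ppp1r3b rose over the first step (0.93) and fell over the second (-1.61). The glycogen phosphorylase Pygl, which breaks glycogen down, fell by 2.13 ± 0.04 in its brightest probe and was lower in its other probe too, with -0.32 over the first step and -1.81 over the second. Phosphoglucomutase Pgm1 fell by 2.20 ± 0.04, with -0.39 and -1.81. Gbe1, the branching enzyme, was 0.57 higher over the first step and 1.09 lower over the second (a log2 change of -1.09), and the synthase Gys1 changed by -0.02 ± 0.04 (limma adjusted p = 0.779). The Gys1 probe read low and unevenly, with levels from -5.16 in hypertrophic replicate 2 to -2.84 in proliferative replicate 4. The brain-type phosphorylase Pygb changed by -0.22 ± 0.03, against 0.61 in its other probe. Gsk3b, a kinase that inhibits the synthase, was higher by 3.27 ± 0.04, the glycogen primer Gyg by 1.93 ± 0.04 and the phosphatase catalytic subunit Ppp1cb by 1.14 ± 0.03.

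Among 23 measured mucolipins and other endolysosomal channels and regulators, 7 were higher, 8 lower and 8 did not pass (median -0.07) in the hypertrophic against the proliferative zone, and 6 were higher and 14 lower over the second step (median -0.20). Mcoln2 fell by 4.41 ± 0.11 (limma adjusted p = 4.09e-05), more than any other gene of the list. The lysosomal potassium channel Tmem175 fell by 1.64 ± 0.03 and the chloride transporter Clcn3 by 1.32 ± 0.04. The channel Tpcn1 (1.76 ± 0.03, with other probes from -0.46 to 1.06), the chloride channel subunit Ostm1 (1.67 ± 0.03) and the lysosomal membrane protein Lamp1 (0.98 ± 0.03) were higher. For Scrg1 the list held the receptor Bst1 and signalling genes known from human and mouse cell studies. By the brightest probe all 4 measured were higher in the hypertrophic than in the proliferative zone, with Cd34, also a vessel and blood progenitor marker, at 3.92 ± 0.16, Bst1 at 1.94 ± 0.05, Src at 0.31 ± 0.03 and Itgb1 at 0.29 ± 0.04. The other Src probe gave -0.15 and the other Itgb1 probes -0.07 to 0.55, so the direction of these genes rests on the brightest probe.

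**Figure D5:**
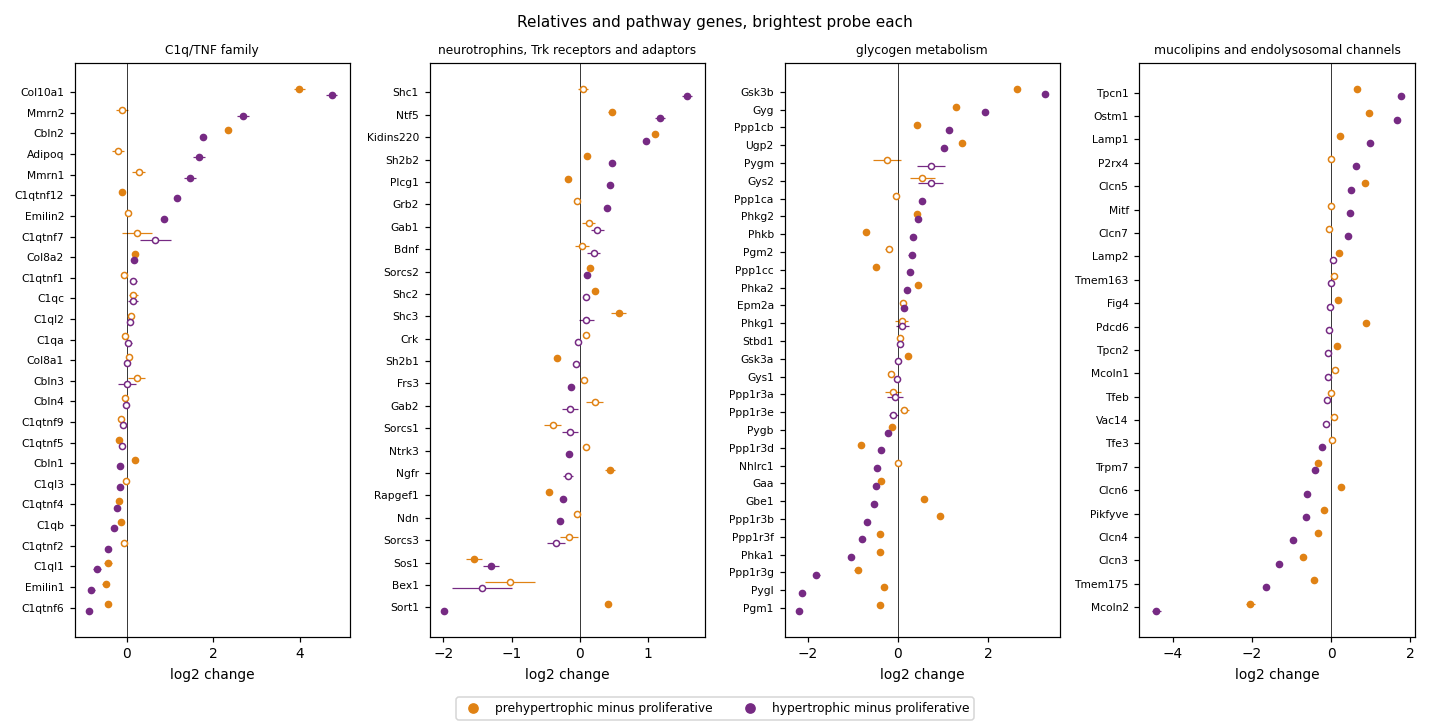
Log2 changes (horizontal axes) of the listed relatives and pathway genes, 1 gene per row by its brightest probe, for prehypertrophic minus proliferative (orange) and hypertrophic minus proliferative (purple), with ± SE and filled points for adjusted p under 0.05. Mcoln2 at -4.41 and Col10a1 at 4.74 stand farthest from 0.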

How the data were processed

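RNA was measured on 6 two-colour Agilent whole-genome arrays. Each deposited scanner file gives, per the file headers, an intensity per spot for a single channel. Agilent Feature Extraction 8.1.1.1, named in the submitters' processing notes, had removed spatial trends, normalized the dyes within the array and used surrogates for low signals. Surrogates and saturation limit the lowest and highest values. Other deposited values, flags of 0 or 1, mark saturated, outlying and well-above-background spots (multiplier 2.6). A deposited table of log2 values was not used: of its 12 columns 1 matched the scanner file of its own sample best, and all 12 matched the file of the same rank by title.

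Ratios were normalized by loess in limma 3.58.1 (R 4.3.3), outlier-flagged ratios left out and spots of 1 probe averaged. A probe was kept if 4 or more of 12 samples were well above background (40017 of 41174). Symbols came from the annotation of the platform, and 8483 probes had none. Each probe's 6 ratios were fitted with zone and dye terms and moderated variances (3 residual and 1.21 prior degrees of freedom), and p-values were adjusted by Benjamini-Hochberg over all probes tested. The pipeline was tested on simulated data. The number of arrays limits the precision. All probes of the 5 genes are named. From each list the 3 largest called rises and falls and the nearest relatives are named, and for likeness the 3 nearest genes. Members and lists were chosen with earlier results of these data known. Alternatives are given in the closing section. Some listed genes were not analysed here.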

Additional observations from a re-analysis of the deposited data

Results flagged for a closer look

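In Ntrk2 probe A_51_P516012, hypertrophic replicate 2 stood at -1.94, apart from the other 3 hypertrophic samples, the nearest of which was at -2.38. This was 1 of 28 groups of 4 samples examined, and chance marks about 1 in 20.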

How the results depend on the processing

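Counts of called probes stayed within 1.5 times under 17 alternatives in each comparison. Averaging the probes of each gene, which leaves 27179 tests, gave 14711, 10765, 14030 and 11845 calls in the 4 comparisons, in the order given next. Leaving out 1 array in turn gave 17343 to 20691 for hypertrophic against proliferative (22107 in the main analysis), 11260 to 15112 for prehypertrophic against proliferative (16890), 15974 to 20226 for hypertrophic against prehypertrophic (21489) and 12922 to 17819 for prehypertrophic against the mean of the outer zones (18561). For that last difference, leave-one-array-out values ran from 1.15 to 1.75 for Scrg1 and from 0.16 to 0.29 for C1qtnf3 A_51_P425071. The C1qtnf3 value also lost its call at 0.24 without the dye term, without the filter and with robust moderation, at 0.13 with 50 added, and at 0.088 with the replicate block. Ppp1r3c A_51_P521010, dim in 6 samples, gained a call at -0.39 without loess and -0.40 with median centring, against -0.10. Without the dye term 3 C1q genes were lower over the first step, 5 neurotrophin genes were higher over the first and 4 lower over the second. On the Scrg1 list, over the first step, 1 gene was higher with the filter on all 12 samples and 0 lower with outlier-flagged spots kept, and in each case the cause was not tested. The other calls of Ntrk2, Ppp1r3c and C1qtnf3 and the missing call of Mcoln3 held under every alternative run. Whether same-numbered samples pair was not clear. Their deviations correlated at -0.25 to 0.29 (median 0.03) over 8 pairs on different arrays. The range was -0.32 to 0.30 (median -0.12) over 34 pairs of other number and array. Samples on 1 array, of like or unlike number, correlated at 0.24 to 0.55. With the replicate block 16882 probes were called in the last comparison. Signal limits Scrg1 and C1qtnf3 at the top (saturation) and the second Ppp1r3c probe at the bottom.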

Other observations

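Named after their values were seen, several relatives of the 5 genes had probes that read differently between the hypertrophic and proliferative zones. Tmem163, a zinc-binding membrane protein, changed by 0.01 in its brightest probe and by 2.59 in another. The collagen Col8a1 gave 0.02 and 1.47, and Mmrn1, a platelet and vessel protein, 1.46 and -1.15. Both Gsk3b probes were higher, by 3.27 and 3.11.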
